A study of Mus musculus with 15 samples.

Results

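The 9 genes described here set the balance between clotting and clot removal at the vessel wall: F3 (tissue factor), Thbd (thrombomodulin), Procr (endothelial protein C receptor), Tfpi (tissue factor pathway inhibitor), Plat (tissue-type plasminogen activator), Plau (urokinase), Plaur (urokinase receptor), F13a1 (A chain of factor XIII) and Vwf (von Willebrand factor). They were chosen by gene name from a deposited FPKM table, whose values are fragments of a gene scaled by its transcript length and by the mapped total of the library. All 9 were among its 22557 genes, and all 9 reached the mean of 1 FPKM over all libraries that 13082 genes reached. The libraries are bulk RNA sequencing of cerebral vessels isolated from perfused brains of wild type C57BL/6 mice aged 8 months. LH3-AL mice carried AAV-LH3, an adeno-associated virus for the lysyl hydroxylase LH3 placed in the brain by stereotactic injection, and were given angiotensin II (AngII) with L-NAME, a blocker of nitric oxide synthases. GFP-AL mice carried AAV-GFP, which encodes green fluorescent protein, and were given the same drug pair. GFP-Veh mice carried AAV-GFP and were given saline. Each group has 5 libraries. The series concerns intracerebral haemorrhage brought on by this drug pair, and every mouse had a virus injected into the brain. None of the groups pairs AAV-LH3 with saline, so an effect of the virus without the drugs cannot be told apart from one that needs them. Neither the promoter and serotype of the viruses nor whether each library is 1 mouse could be read from the labels. P-values therefore measure the spread between these samples.

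Clotting at a vessel wall starts when tissue factor meets factor VII of the blood, and tissue factor pathway inhibitor blocks that step. Thrombin held by thrombomodulin activates protein C, which the protein C receptor presents on endothelium, and this turns clotting down. Fibrin is cross-linked by factor XIII and cut by plasmin, which tissue-type activator and urokinase make from plasminogen. Urokinase works on cells bound to its receptor. Von Willebrand factor, which tethers platelets, is stored in the Weibel-Palade bodies of endothelium. Brain vessels are known for an unequal supply of these proteins, with much tissue factor in the surrounding astrocytes and tissue-type activator in endothelium and neurons.

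Estimated depth was 18 to 31.64 M fragments (M, mega) in LH3-AL, 21.12 to 27.8 M fragments in GFP-AL and 13.56 to 29.8 M fragments in GFP-Veh, where 4 of 5 libraries lay at 16.02 M or less. Plod3, the gene of LH3, averaged 21.6 ± 1.46 FPKM in LH3-AL, 13.9 ± 1.09 in GFP-AL and 16.8 ± 0.621 in GFP-Veh (SD, n = 5). All 12 endothelial markers were measured, and their summed level was 1884 to 2394 FPKM in LH3-AL, 2273 to 3250.2 FPKM in GFP-AL and 1886 to 2692 FPKM in GFP-Veh. GFP-AL replicates 2 and 3 and GFP-Veh replicate 2 are known from earlier results of these data to stand apart. Among the 5 GFP-AL libraries, replicate 2 was the highest for 6 of the 9 genes (Thbd, Procr, Plat, Plau, Plaur and F13a1), and replicate 3 was the lowest for 6 (F3, Thbd, Tfpi, Plat, Plau and F13a1). Without these 3 libraries the 5 calls of GFP-AL against GFP-Veh, the 5 of LH3-AL against GFP-AL and the 1 of LH3-AL against GFP-Veh given below all held.

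The genes fell into 5 that were called in both comparisons with GFP-AL and 4 that were not called in any. In GFP-AL against GFP-Veh, 5 of the 9 rose (Procr, Plat, Plaur, F13a1 and Vwf) and none fell, by limma with p-values adjusted over 13082 genes and called below 0.05. The background was 28.6% of genes called in either direction, 10.8% higher and 17.7% lower. In LH3-AL against GFP-AL those same 5 fell and none rose, where 28.5% of all genes were called, 17.0% higher and 11.4% lower. F3, Thbd, Tfpi and Plau passed in none of the 3 comparisons. In LH3-AL against GFP-Veh, 1 gene was called, Plaur, which was lower, and 0.520% of all genes were called, 0.145% higher and 0.375% lower. Any pair of these comparisons shares a group of 5 libraries, so they are not independent of each other.

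Differences, rises and falls are given in log2(FPKM + 1), a scale that understates the change of low genes, and levels in FPKM. Low genes of the lists below, such as Treml1, Il1r2, Cxcr2, Fosl1, Il1b, Selp and Tfpi2, averaged under 1 FPKM in both LH3-AL and GFP-Veh. They passed the filter only through GFP-AL, so their place as highest there is set in part by the filter. List counts and medians that hold them share this limit. The median difference of the 9 genes was 0.66 in GFP-AL minus GFP-Veh, against -0.09 over all genes tested. It was -0.79 in LH3-AL minus GFP-AL, against 0.08 over all genes, and -0.19 in LH3-AL minus GFP-Veh, against -0.01. The libraries of the groups did not overlap for 4 members in GFP-AL against GFP-Veh, as for 16.7% of all genes. They did not overlap for 3 members in LH3-AL against GFP-AL, as for 19.4% of all genes, and for 3 in LH3-AL against GFP-Veh, as for 4.67%. With median-of-ratios scaling between libraries the calls over all genes in GFP-AL against GFP-Veh split into 1842 higher and 1711 lower, against 1416 and 2321 as deposited. In LH3-AL against GFP-AL they split into 1782 higher and 1895 lower, against 2227 and 1496. No call among the 9 genes was lost with that scaling.

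**Figure D1:**
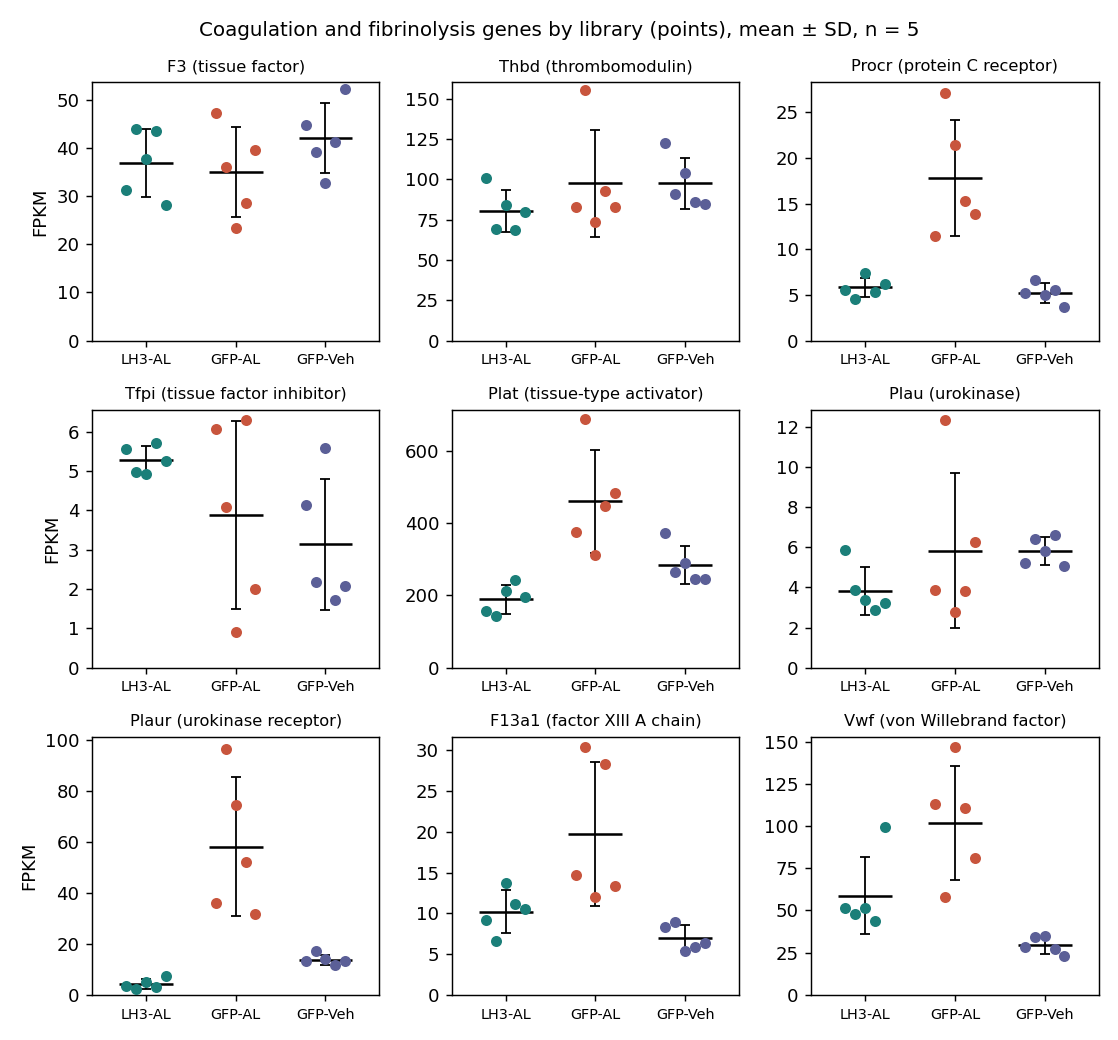
FPKM of each gene in each library (points), by group, with the mean and SD (n = 5) as bars. Procr and Plaur stand higher in all 5 GFP-AL libraries than in any other library, while F3, Thbd, Tfpi and Plau overlap between groups.

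Per unit of transcript length, Plat was the most abundant of the 9 in every library, at 144 to 687 FPKM. In GFP-Veh the order of mean FPKM went on with Thbd (97.6), F3 (42.1), Vwf (29.5), Plaur (13.8), F13a1 (6.98), Plau (5.82), Procr (5.20) and Tfpi (3.14). The ranges of F3 and Vwf overlapped there, as did those of F13a1, Plau, Procr and Tfpi, so the order within these sets is within the spread. In GFP-AL, Vwf and Plaur stood higher in the order, at 102 and 58.1 FPKM, and the ranges of neighbours in the order overlapped among Vwf, Thbd, Plaur and F3. In LH3-AL, Plaur (4.19 FPKM) was among the lowest members, with a range that overlapped those of Procr, Tfpi and Plau. By the estimate of depth, every value corresponded to at least 106 fragments (Tfpi), and the lowest library of Plat to 17634. The estimate is rough, since only 43.9% to 66.0% of low values came out as whole fragments.

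Promoter windows are shown for F3, Procr and Plaur, which share the letters that AP-1, the factor made of Fos and Jun proteins, is known to bind, and of which Procr and Plaur were called and F3 was not. The windows span 250 bases before to 50 after the start of transcription, from RefSeq with the build GRCm38.p6, which gave windows for 5 of the 9 genes. All 3 lie on the plus strand, at chr3:121723287-121723586 for F3, chr2:155750967-155751266 for Procr and chr7:24462233-24462532 for Plaur, and capitals mark the AP-1 letters TGANTCA.
F3: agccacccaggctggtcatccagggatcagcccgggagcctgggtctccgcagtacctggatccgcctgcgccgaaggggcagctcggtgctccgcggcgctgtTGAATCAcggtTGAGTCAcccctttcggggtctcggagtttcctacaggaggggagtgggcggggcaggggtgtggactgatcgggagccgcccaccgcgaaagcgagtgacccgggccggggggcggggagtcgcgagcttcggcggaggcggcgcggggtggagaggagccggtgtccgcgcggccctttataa
Procr: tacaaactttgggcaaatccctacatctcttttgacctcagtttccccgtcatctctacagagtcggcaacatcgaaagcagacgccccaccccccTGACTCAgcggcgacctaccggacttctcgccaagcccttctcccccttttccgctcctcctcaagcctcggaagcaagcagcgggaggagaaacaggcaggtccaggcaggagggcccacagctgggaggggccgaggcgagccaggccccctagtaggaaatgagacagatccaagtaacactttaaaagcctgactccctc
Plaur: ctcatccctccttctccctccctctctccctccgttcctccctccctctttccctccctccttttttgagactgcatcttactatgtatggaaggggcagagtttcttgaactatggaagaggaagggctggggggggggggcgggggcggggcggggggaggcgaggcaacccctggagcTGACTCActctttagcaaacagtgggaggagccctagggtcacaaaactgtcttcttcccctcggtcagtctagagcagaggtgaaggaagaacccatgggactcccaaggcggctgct
F3 holds 2 matches, 146 and 135 bases before the start, Procr 1 match 154 bases before it and Plaur 1 match 69 bases before it. These letters read the same on both strands, and 7.81% of 32851 RefSeq windows of this length hold them. The second match of F3 overlaps a CACCC, the letters searched for Kruppel-like factors on both strands, which 57.5% of windows hold. F3 and Plaur also hold 1 match each of the kappaB-like letters GGNNNTTCC (18.5% of windows, both strands), and 1 window of F13a1 holds 2. Plaur holds 1 match of the Egr letters GCGNGGGCG (5.55%, both strands). The windows of Tfpi and F13a1, a pair for each gene, hold no AP-1 letters. No window of the 5 genes holds the STAT letters TTCNNNGAA (8.30% of windows, both strands), and the E-box letters CACGTG (7.15%, both strands) occur in 1 window of Tfpi. A match is a run of letters and was not tested for binding.

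Tissue factor, the trigger of clotting, did not pass the test. F3 (ENSMUSG00000028128, chromosome 3, 121723537 to 121735048, plus strand, GRCm38) had 31.4, 44.0, 37.7, 43.5 and 28.2 FPKM in the LH3-AL libraries, 47.4, 36.2, 23.4, 28.7 and 39.7 FPKM in the GFP-AL libraries, and 44.9, 39.3, 32.7, 41.4 and 52.3 FPKM in the GFP-Veh libraries. The 3 groups overlapped throughout, with the lowest library in GFP-AL and the highest in GFP-Veh. The difference was -0.28 ± 0.18 (log2 scale, SE; 95% interval -0.67 to 0.11; limma adjusted p = 0.262) in GFP-AL minus GFP-Veh, 0.09 ± 0.18 (-0.29 to 0.48; 0.723) in LH3-AL minus GFP-AL and -0.19 ± 0.18 (0.813) in LH3-AL minus GFP-Veh. Its inhibitor was low throughout. Tfpi (ENSMUSG00000027082, chromosome 2, 84432855 to 84476775, minus strand) had 5.57, 4.98, 4.91, 5.71 and 5.24 FPKM in LH3-AL, 6.07, 4.08, 0.914, 6.29 and 2.01 FPKM in GFP-AL, and 4.14, 2.17, 5.59, 1.71 and 2.07 FPKM in GFP-Veh. LH3-AL libraries lay close together, with a coefficient of variation of 6.66%, against 61.8% in GFP-AL and 53.2% in GFP-Veh; this difference in spread was not tested. Tfpi differed by 0.15 ± 0.33 (95% interval -0.55 to 0.85; limma adjusted p = 0.758) in GFP-AL minus GFP-Veh and by 0.54 ± 0.33 (-0.16 to 1.24; 0.226) in LH3-AL minus GFP-AL. In LH3-AL minus GFP-Veh it differed by 0.69 ± 0.33 (-0.01 to 1.39; 0.562). The ratio of F3 to Tfpi within a library had a median of 7.62 (5.37 to 8.84) in LH3-AL, 8.86 (4.56 to 25.6) in GFP-AL and 18.1 (5.85 to 25.3) in GFP-Veh, and the ranges overlap.

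The genes of the protein C pathway split. Procr (ENSMUSG00000027611, chromosome 2, 155751117 to 155755471, plus strand) had 5.58, 4.56, 7.44, 5.34 and 6.16 FPKM in LH3-AL, 11.4, 27.1, 21.5, 15.3 and 13.9 FPKM in GFP-AL, and 5.21, 6.62, 5.03, 5.48 and 3.68 FPKM in GFP-Veh. All 5 GFP-AL libraries were above all 10 others, and LH3-AL overlapped GFP-Veh. Procr rose by 1.56 ± 0.20 (log2 scale, SE) in GFP-AL against GFP-Veh (limma adjusted p = 6.21e-05) and fell by 1.42 ± 0.20 in LH3-AL against GFP-AL (2.13e-04). The two-sided exact permutation p of both was 0.00794, the smallest that reassigning 10 libraries can give, and 0.0214 adjusted over the 27 such tests of the 9 genes. The difference in LH3-AL minus GFP-Veh was 0.14 ± 0.20 (95% interval -0.28 to 0.56; limma adjusted p = 0.887). Thbd (ENSMUSG00000074743, chromosome 2, 148404466 to 148408188, minus strand, a gene of 1 exon) had 100.8, 69.1, 84.3, 68.4 and 79.6 FPKM in LH3-AL, 82.9, 156, 73.8, 92.8 and 82.8 FPKM in GFP-AL, and 122, 90.9, 104, 86.2 and 84.6 FPKM in GFP-Veh. GFP-AL replicate 2 was above every other library, and the groups overlapped. Thbd differed by -0.04 ± 0.18 (95% interval -0.42 to 0.34; limma adjusted p = 0.889) in GFP-AL minus GFP-Veh, -0.24 ± 0.18 (-0.62 to 0.15; 0.332) in LH3-AL minus GFP-AL and -0.28 ± 0.18 (0.698) in LH3-AL minus GFP-Veh. Within a library the ratio of Procr to Thbd was 0.0554 to 0.0883 in LH3-AL, 0.138 to 0.291 in GFP-AL and 0.0425 to 0.0728 in GFP-Veh, with no overlap between GFP-AL and the other groups.

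The urokinase receptor had a large difference in each of the 3 comparisons. Plaur (ENSMUSG00000046223, chromosome 7, 24462484 to 24475968, plus strand) had 3.58, 2.12, 4.95, 3.00 and 7.28 FPKM in LH3-AL, 36.0, 96.5, 74.5, 52.1 and 31.5 FPKM in GFP-AL, and 13.3, 17.0, 14.0, 11.5 and 13.2 FPKM in GFP-Veh. None of the 3 groups overlapped another, with GFP-AL highest and LH3-AL lowest. Plaur rose by 1.88 ± 0.29 (log2 scale, SE) in GFP-AL against GFP-Veh (limma adjusted p = 2.95e-04) and fell by 3.47 ± 0.29 in LH3-AL against GFP-AL (6.94e-06). The first value was within its SE of that of Vwf (1.70 ± 0.24), and without the 3 libraries that stand apart it was 1.52, against 1.81 for Vwf. In LH3-AL minus GFP-Veh it differed by -1.59 ± 0.29 (limma adjusted p = 0.0204; exact permutation p = 0.00794), so it was lower than with saline and AAV-GFP. That call was lost with log2 depth as a covariate (-1.54, adjusted p = 0.326), with the replicate number as a block (0.0669), and without LH3-AL replicate 2 (0.0531) or 4 (0.0739) or any 1 of the 5 GFP-Veh libraries (0.0517 to 0.0592). Plaur is known as a gene of neutrophils and monocytes too. The 10 neutrophil markers summed to 47.2 to 86.9 FPKM in LH3-AL, 127 to 977 FPKM in GFP-AL and 106 to 344 FPKM in GFP-Veh. Of these 10, 6 rose and none fell in GFP-AL against GFP-Veh (median 1.13), 8 fell and none rose in LH3-AL against GFP-AL (median -2.10), and LH3-AL against GFP-Veh gave no call (median -0.80). Il1r2 and Cxcr2 among them passed the filter only through GFP-AL. In GFP-AL minus GFP-Veh, Camp (-1.21), Ngp (-0.62), S100a8 (0.96) and S100a9 (1.01) were not called. Camp and Ngp were not called in LH3-AL against GFP-AL either. The 8 monocyte markers summed to 95.98 to 158 FPKM in LH3-AL, 290.01 to 479 FPKM in GFP-AL and 97.4 to 176 FPKM in GFP-Veh, with 3 of the 4 tested higher in the first comparison and 3 lower in the second. Most of the GFP-AL sum was Lyz2 (mean of 242 FPKM) and Chil3 (69.3 FPKM). Ly6c2, Ccr2, Vcan and Itgal were under the filter, and Plac8 was not called. No marker of either list was under 0.1 FPKM in every library, and their part in the Plaur result was not tested. In bulk RNA, fewer cells of a type and less RNA per cell cannot be told apart. The ligand of Plaur, urokinase, passed in no comparison. Plau (ENSMUSG00000021822, chromosome 14, 20836660 to 20843385, plus strand) had 5.87, 3.87, 3.37, 2.86 and 3.24 FPKM in LH3-AL, 3.88, 12.4, 2.80, 3.85 and 6.26 FPKM in GFP-AL, and 5.20, 6.40, 5.81, 6.59 and 5.10 FPKM in GFP-Veh. The groups overlapped, and GFP-AL replicate 2 was the highest library. Plau differed by -0.15 ± 0.26 (95% interval -0.70 to 0.41; limma adjusted p = 0.705) in GFP-AL minus GFP-Veh, -0.37 ± 0.26 (-0.93 to 0.19; 0.294) in LH3-AL minus GFP-AL and -0.52 ± 0.26 (0.594) in LH3-AL minus GFP-Veh. The ratio of Plaur to Plau within a library was 0.547 to 2.24 in LH3-AL, 5.03 to 26.6 in GFP-AL and 1.75 to 2.65 in GFP-Veh.

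The tissue-type activator, unlike urokinase, was called in both comparisons with GFP-AL. Plat (ENSMUSG00000031538, chromosome 8, 22757727 to 22782844, plus strand) had 157, 144, 211, 242 and 194 FPKM in LH3-AL, 376, 687, 311, 447 and 482 FPKM in GFP-AL, and 372, 265, 289, 244 and 246 FPKM in GFP-Veh. All LH3-AL libraries were below all libraries of both other groups, while GFP-Veh replicate 1 reached into the range of GFP-AL. Plat rose by 0.66 ± 0.20 (log2 scale, SE) in GFP-AL against GFP-Veh (limma adjusted p = 0.0217; exact permutation p = 0.0159). This call was lost with quantile normalization (0.44, adjusted p = 0.133), with GFP-Veh replicate 4 (0.0551) or 5 (0.0537) left out, and with log2 depth as a covariate (0.105). In LH3-AL against GFP-AL it fell by 1.25 ± 0.20 (limma adjusted p = 5.44e-04). In LH3-AL minus GFP-Veh it differed by -0.59 ± 0.20 (95% interval -1.01 to -0.16). The limma p was 0.00981, or 0.335 adjusted over 13082 genes. The exact permutation p was 0.00794, or 0.0214 adjusted over the 27 tests. The 2 tests gave similar p-values before adjustment, and Plat missed the threshold over 13082 genes.

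**Figure D2:**
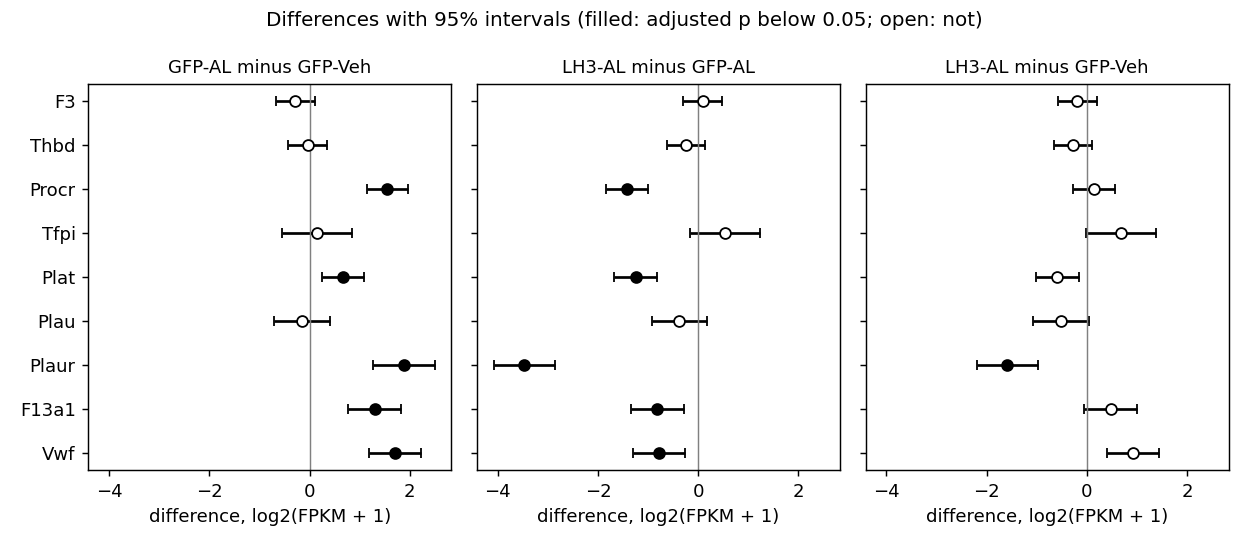
Differences of the 9 genes in log2(FPKM + 1) with 95% intervals, for each of the 3 comparisons, with filled points for limma adjusted p below 0.05. Procr, Plat, Plaur, F13a1 and Vwf lie to the right of 0 in GFP-AL minus GFP-Veh and to the left in LH3-AL minus GFP-AL, and in LH3-AL minus GFP-Veh only Plaur is filled.

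Serpine2 (protease nexin 1), which inhibits thrombin and plasminogen activators, averaged 18.8 ± 1.27 FPKM in LH3-AL, 21.9 ± 2.29 in GFP-AL and 20.6 ± 2.42 in GFP-Veh (SD, n = 5). It did not pass in GFP-AL against GFP-Veh (0.08) or in LH3-AL against GFP-AL (-0.21), though with median-of-ratios scaling the second was called (-0.28, limma adjusted p = 0.0363).

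Genes that bind plasminogen to cells moved in both directions. Anxa2 and S100a10, which form the annexin A2 complex that gathers plasminogen and Plat, averaged 70.6 and 24.8 FPKM in LH3-AL, 109.965 and 34.8 FPKM in GFP-AL, and 57.4 and 20.3 FPKM in GFP-Veh. They rose by 0.88 ± 0.24 and 0.73 in GFP-AL against GFP-Veh (limma adjusted p = 0.0130 and 0.0264), and their differences of -0.62 and -0.43 in LH3-AL minus GFP-AL missed the threshold (0.0647 and 0.170). Both calls of the first comparison were lost with log2 depth as a covariate, at differences of 0.93 and 0.87 (0.0528 and 0.0530). That of S100a10 was also lost in a fit of the 2 groups (0.0555) and without GFP-AL replicate 2 or 4 or GFP-Veh replicate 3, 4 or 5 (0.0516 to 0.0710). In LH3-AL minus GFP-AL, Anxa2 was called with median-of-ratios scaling (-0.70, limma adjusted p = 0.0481) and without LH3-AL replicate 5 (0.0198) or GFP-AL replicate 5 (0.0206). Plgrkt, a plasminogen receptor, went the other way, at 5.80 ± 0.547 FPKM in LH3-AL, 4.03 ± 0.887 in GFP-AL and 6.45 ± 0.545 in GFP-Veh (SD, n = 5). It fell by 0.58 ± 0.12 in GFP-AL against GFP-Veh (limma adjusted p = 0.00196) and rose by 0.45 ± 0.12 in LH3-AL against GFP-AL (0.0110). Plg, plasminogen itself, which the liver makes, reached at most 0.129 FPKM in any library, and Serpinb2 (plasminogen activator inhibitor 2) at most 0.241.

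**Figure D3:**
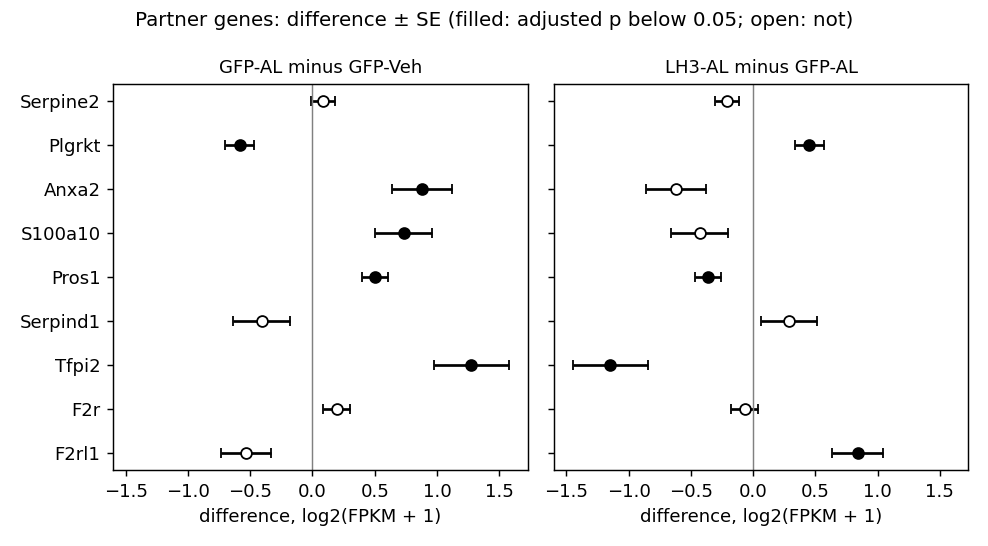
Differences of 9 partner genes of the pathway in log2(FPKM + 1), with SE, in GFP-AL minus GFP-Veh and LH3-AL minus GFP-AL (filled points: limma adjusted p below 0.05). Anxa2, S100a10, Pros1 and Tfpi2 lie to the right of 0 in the first panel and to the left in the second, and Plgrkt the other way round. Tfpi2 passed the filter only through GFP-AL.

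Over the list of 16 genes of fibrinolysis and its inhibitors, 12 were tested besides the members. In GFP-AL against GFP-Veh 6 rose and 2 fell, with a median of 0.41, and in LH3-AL against GFP-AL 3 rose and 4 fell, with a median of -0.32. The genes that rose in the first comparison include Tgfbi (1.31) and Thbs1 (1.26), a pair of matrix proteins, and A2m (0.94), a broad protease inhibitor, so they are not all genes that remove clots. Mrc2, a collagen receptor, fell (-0.53). LH3-AL against GFP-Veh gave no call in the list.

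The genes listed for the anticoagulant pathway besides the members moved in both directions in GFP-AL against GFP-Veh, and not all of them only damp clotting. Of 14 listed, 8 were tested, 5 rose and 1 fell in GFP-AL against GFP-Veh (median 0.55), 4 fell and none rose in LH3-AL against GFP-AL (median -0.39), and LH3-AL against GFP-Veh gave no call. Pros1, protein S, the cofactor of activated protein C, averaged 30.9 ± 3.26 FPKM in LH3-AL, 40.1 ± 5.36 in GFP-AL and 27.8 ± 1.87 in GFP-Veh (SD, n = 5). It rose by 0.50 ± 0.10 in GFP-AL against GFP-Veh (limma adjusted p = 0.00238) and fell by 0.36 ± 0.10 in LH3-AL against GFP-AL (0.0185; 0.0707 with quantile normalization). Tfpi2, a relative of Tfpi that inhibits plasmin and other proteases, averaged 0.545 FPKM in LH3-AL, 2.87 in GFP-AL and 0.415 in GFP-Veh, and differed by 1.28 ± 0.30 (0.00587; 0.0674 with depth as a covariate) and -1.15 ± 0.30 (0.0123) in the same 2 comparisons. Tfpi2 passed the filter only through GFP-AL, so its differences and its part in the counts above are set in part by the filter. Entpd1 (0.86), which removes ATP and ADP, Ptgis (0.65), which makes prostacyclin, and Nos3 (0.60), the endothelial nitric oxide synthase that L-NAME blocks, rose in GFP-AL against GFP-Veh. Gas6, a ligand of TAM receptors, fell (-0.45). Serpind1 (heparin cofactor II) was not called in any comparison, and Adamts13, which cuts von Willebrand factor, and Serpinc1 (antithrombin) reached at most 0.0662 and 0.0737 FPKM.

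Most plasma clotting factors were under the filter of a mean of 1 FPKM. Of 14 listed, 12 were in the table, with sums of 5.46 to 9.70 FPKM in LH3-AL, 4.94 to 8.58 in GFP-AL and 4.34 to 6.18 in GFP-Veh. Of these 12, 1 was tested, F5, at 5.67 FPKM in LH3-AL, 4.64 in GFP-AL and 4.37 in GFP-Veh, with no call. F2, F9, Fga and Kng1 stayed under 0.1 FPKM in every library. F10, named like F5 after its values were seen, fell under the filter with 0.156 FPKM in LH3-AL, 1.31 in GFP-AL and 0.0923 in GFP-Veh. GFP-AL replicate 2 had 3.30 FPKM of F10, and the other 4 GFP-AL libraries averaged 0.809. In a fit with no filter F10 differed by 0.95 ± 0.22 in GFP-AL minus GFP-Veh (limma adjusted p = 0.00859) and by -0.87 ± 0.22 in LH3-AL minus GFP-AL (0.0164). Without GFP-AL replicate 2, a setting chosen after seeing the data, these were 0.69 ± 0.13 (0.00279) and -0.61 ± 0.13 (0.00758). Of the thrombin-activated and related receptors, F2r was not called, except without GFP-AL replicate 2, where it was higher in GFP-AL than in GFP-Veh (0.29, limma adjusted p = 0.0264). F2rl1 (PAR2) had 3.26 ± 0.633 FPKM in LH3-AL, 1.48 ± 0.771 in GFP-AL and 2.47 ± 0.603 in GFP-Veh (SD, n = 5). F2rl1 rose by 0.84 ± 0.20 in LH3-AL against GFP-AL (limma adjusted p = 0.00781). In GFP-AL minus GFP-Veh it differed by -0.53 (0.0606). That difference was called with the replicate number as a block (0.0428) and without GFP-AL replicate 1 (0.0469) or 4 (0.0217), and it was -0.22 (0.359) without the 3 libraries that stand apart and -0.67 to -0.33 with 1 library left out. Ggcx, the gamma-carboxylase that vitamin K serves, was the 1 of 4 genes of that cycle to be called, lower in GFP-AL than in GFP-Veh (-0.74, limma adjusted p = 1.91e-04) and higher in LH3-AL than in GFP-AL (0.72).

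The A chain of factor XIII, which makes fibrin resistant to plasmin, rose in GFP-AL. F13a1 (ENSMUSG00000039109, chromosome 13, 36867178 to 37050244, minus strand) had 9.15, 6.62, 13.7, 11.2 and 10.5 FPKM in LH3-AL, 14.7, 30.4, 12.1, 28.3 and 13.4 FPKM in GFP-AL, and 8.29, 8.997, 5.41, 5.83 and 6.37 FPKM in GFP-Veh. GFP-AL replicates 2 and 4 were far above the rest, all GFP-AL libraries were above all GFP-Veh libraries, and LH3-AL overlapped both groups. F13a1 rose by 1.30 ± 0.25 (log2 scale, SE) in GFP-AL against GFP-Veh (limma adjusted p = 0.00147; exact permutation p = 0.00794). It fell by 0.82 ± 0.25 in LH3-AL against GFP-AL (limma adjusted p = 0.0241; exact permutation p = 0.0238, or 0.0536 over the 27 tests), a call lost without GFP-AL replicate 2 (0.0584) or 4 (0.0547) or LH3-AL replicate 1 (0.0526) or 2 (0.0643). Its difference in LH3-AL minus GFP-Veh was 0.48 ± 0.25 (limma adjusted p = 0.608). Exons of F13a1 overlap those of Gm30489 on the opposite strand, and reads of the pair cannot be told apart without strand, which no label or header states. F13a1 is also a marker of macrophages at the brain's borders. The other 7 markers of these cells summed to 32.7 to 50.4 FPKM in LH3-AL, 57.3 to 89.7 FPKM in GFP-AL and 30.7 to 46.5 FPKM in GFP-Veh. Of the 6 tested, 4 rose in GFP-AL against GFP-Veh (median 0.77) and 4 fell in LH3-AL against GFP-AL (median -0.57), and none of the 7 was under 0.1 FPKM in every library. Pf4, among those 4 (19.6 FPKM in GFP-AL and 6.82 in GFP-Veh), is counted in the platelet list below as well. Mrc1 and Cbr2 were not called in either comparison. Ms4a7, which was not tested, averaged 0.708 FPKM in GFP-AL and 1.03 in GFP-Veh. The part of these markers in the F13a1 result was not tested.

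Von Willebrand factor was the member whose LH3-AL level stood farthest above GFP-Veh. Vwf (ENSMUSG00000001930, chromosome 6, 125546774 to 125686679, plus strand, 56 merged exons) had 51.5, 47.8, 51.5, 43.6 and 99.2 FPKM in LH3-AL, 113, 58.2, 147, 111 and 81.0 FPKM in GFP-AL, and 28.2, 34.4, 34.7, 27.3 and 22.9 FPKM in GFP-Veh. All libraries given the drugs were above all GFP-Veh libraries, and LH3-AL replicate 5 reached into the range of GFP-AL. Vwf rose by 1.70 ± 0.24 (log2 scale, SE) in GFP-AL against GFP-Veh (limma adjusted p = 1.60e-04). It fell by 0.79 ± 0.24 in LH3-AL against GFP-AL (limma adjusted p = 0.0258; exact permutation p = 0.0476, or 0.0804 over the 27 tests). That second call was lost with quantile normalization (-0.58, adjusted p = 0.0710), in a fit of these 2 groups alone (0.0534), and without GFP-AL replicate 3 (0.0694) or LH3-AL replicate 1 (0.0561), 2 (0.0595), 3 (0.0512) or 4 (0.0662). LH3-AL exceeded GFP-Veh by 0.92 ± 0.24 (95% interval 0.40 to 1.43), with an exact permutation p of 0.00794 and a limma adjusted p of 0.146.

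Vwf is carried by platelets as well as endothelium, and blood markers moved with it only in part. The 12 platelet and megakaryocyte markers summed to 14.6 to 31.8 FPKM in LH3-AL, 28.6 to 72.3 FPKM in GFP-AL and 9.26 to 21.8 FPKM in GFP-Veh. All 7 that were tested rose in GFP-AL against GFP-Veh (median 1.43) and fell in LH3-AL against GFP-AL (median -1.04). Low ones among them, such as Treml1 (0.923 FPKM in LH3-AL, 2.26 in GFP-AL and 0.346 in GFP-Veh), passed the filter only through GFP-AL. Their rise and fall is therefore set in part by the filter. The 7 red cell markers summed to 4774 to 10139 FPKM in LH3-AL, 3874 to 19348 FPKM in GFP-AL and 1471 to 3864 FPKM in GFP-Veh. All 7 rose in GFP-AL against GFP-Veh (median 2.25), none was called in LH3-AL against GFP-AL (median -0.44), and 3 were called higher in LH3-AL than in GFP-Veh (Hbb-bt and Alas2 among them), with a median of 1.86 over all 7. With log2 depth as a covariate, 0 of all genes tested were called higher in LH3-AL than in GFP-Veh, so these 3 calls were lost there. No marker of either list was under 0.1 FPKM in every library. GFP-AL replicate 3 was the highest of its group in Vwf and in both marker sums, and LH3-AL replicate 5 was the highest of its group in all 3. GFP-Veh went the other way. Its replicate 3 was the highest of the group in Vwf (34.7 FPKM) but the lowest in platelet (9.26 FPKM) and red cell (1471 FPKM) sums. The part of blood RNA in the Vwf result was not tested.

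**Figure D4:**
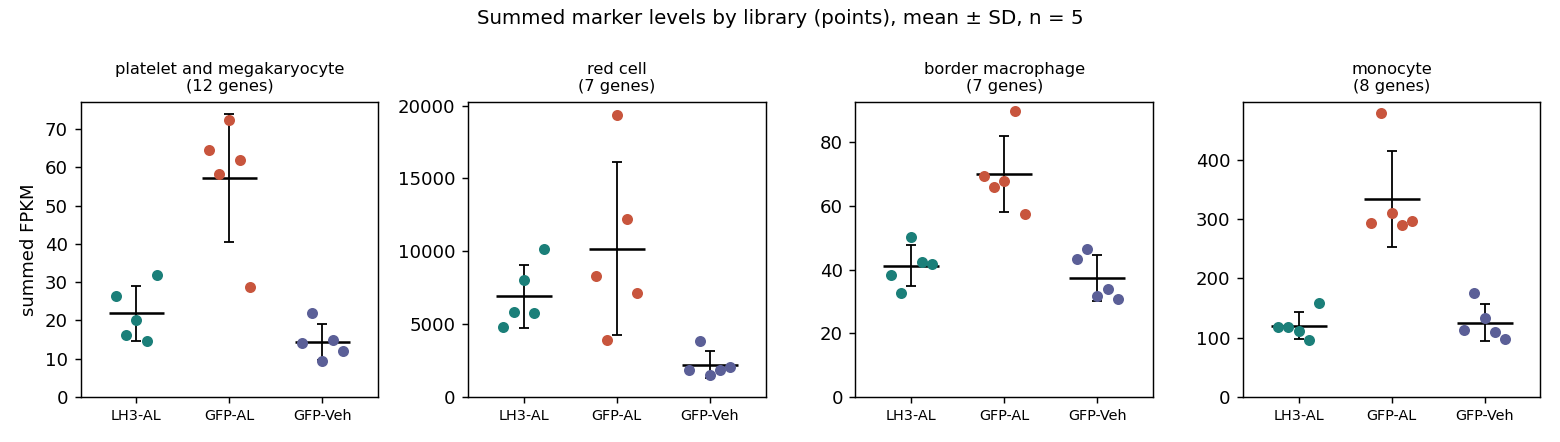
Summed FPKM of the markers of 4 blood and myeloid cell types by library (points), with mean and SD (n = 5). GFP-AL has the highest mean for each of the 4 types. For red cell markers GFP-AL overlaps LH3-AL, and all LH3-AL libraries lie above all GFP-Veh libraries.

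Of the 10 genes of Weibel-Palade bodies besides Vwf, 9 were tested, 5 rose and none fell in GFP-AL against GFP-Veh (median 0.65). In LH3-AL against GFP-AL 4 fell and none rose (median -0.33), and LH3-AL against GFP-Veh gave no call. Selp, the adhesion receptor P-selectin, averaged 0.711 FPKM in LH3-AL, 6.32 in GFP-AL and 0.165 in GFP-Veh, with differences of 2.44 ± 0.33 and -1.96 ± 0.33 (limma adjusted p = 1.12e-04 and 8.23e-04) in GFP-AL minus GFP-Veh and LH3-AL minus GFP-AL. Angpt2, an angiopoietin that loosens vessels, averaged 12.4 FPKM in LH3-AL, 60.4 in GFP-AL and 12.1 in GFP-Veh (2.21 ± 0.23 and -2.24 ± 0.23; limma adjusted p = 1.82e-05 and 2.49e-05). Selp is a platelet gene too, and it passed the filter of a mean of 1 FPKM only through GFP-AL. Its place as highest there, and its part in the counts above, are set in part by the filter.

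Known regulators of these members were read in the same way. Of 12 factors known to induce tissue factor or plasminogen activators, 10 were tested, 5 rose in GFP-AL against GFP-Veh (median 0.95), 4 fell in LH3-AL against GFP-AL (median -0.89) and LH3-AL against GFP-Veh gave no call. Fosl1, a Fos protein of AP-1, averaged 0.309 FPKM in LH3-AL, 10.4 in GFP-AL and 0.394 in GFP-Veh, and Junb, a Jun protein, averaged 54.3 FPKM in LH3-AL, 222 in GFP-AL and 41.4 in GFP-Veh. Il1b, interleukin 1 beta, averaged 0.685 FPKM in LH3-AL, 8.61 in GFP-AL and 0.866 in GFP-Veh, and Rela, a subunit of NF-kappaB, averaged 40.3 FPKM in LH3-AL, 68.8 in GFP-AL and 51.7 in GFP-Veh. All 4 rose in the first comparison and fell in the second, and Fosl1 and Il1b passed the filter only through GFP-AL. Hif1a rose (0.65), but its difference in LH3-AL minus GFP-AL was not called (-0.15). The other tested genes of the list were not called in either comparison. In GFP-AL minus GFP-Veh they were Jun (-0.69), Vegfa (-0.39), Fos (1.26), Egr1 (1.33) and Nfkb1 (0.11). F3, which this list is named for and whose window holds 2 AP-1 matches, was not called in any comparison.

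The regulators of endothelial thrombomodulin took another course. Of 9 listed, 8 were tested, 1 fell in GFP-AL against GFP-Veh, 3 fell in LH3-AL against GFP-AL and 3 were lower in LH3-AL than in GFP-Veh, with none higher (medians -0.07, -0.21 and -0.22). Klf2, which flow induces in endothelium, averaged 221 FPKM in LH3-AL, 441 in GFP-AL and 532 in GFP-Veh. It fell by 1.03 ± 0.25 in LH3-AL against GFP-AL (limma adjusted p = 0.00797) and was lower than in GFP-Veh as well (-1.34 ± 0.25, 0.0238). Klf4 averaged 70.7 FPKM in LH3-AL, 94.1 in GFP-AL and 153 in GFP-Veh, and Klf6 averaged 55.8 FPKM in LH3-AL, 102 in GFP-AL and 99.4 in GFP-Veh. Both were lower in LH3-AL than in GFP-Veh (-1.18 and -0.83, limma adjusted p = 0.0387 and 0.0248). The 68 calls over all genes in LH3-AL against GFP-Veh became 4 with log2 depth as a covariate and 31 with the replicate block. Whether the calls of Klf2, Klf4 and Klf6 there held in these settings was not examined. Thbd was not called in any of the 3 comparisons.

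Within the set, the members that moved together over libraries are given as a description, since the 15 libraries share group, depth and preparation. The highest Pearson r of log2(FPKM + 1) over the 15 libraries was 0.87 for Plat and Plaur, but it was 0.29 among deviations from the group means. Procr and Plaur had 0.84 over all libraries and 0.81 within groups, and Thbd and Plau, both without a call, had 0.79 and 0.75. F3 and Vwf ran in opposite directions, at -0.62 and -0.64. Among the genes tested, those most like Plaur over the 15 libraries were Tnfrsf12a (r = 0.98), Gimap6 (0.97) and Rela (0.96), and those most like Procr were Gorasp2 (0.98), Tnfrsf1a (0.98) and Ifitm2 (0.97). Among the genes most like F13a1 were Ms4a6b (0.94) and Ms4a6d (0.92). Vwf was most like E2f2 (0.97), Slc4a1 (0.96), the red cell anion exchanger, and Isca1 (0.96). Plat was most like Ctla2b, Ifrd1 and Nuak2 (0.92 to 0.95), F3 like Rtkn, Sec61a2 and Rab37 (0.89 to 0.91), Plau like Ippk, Grwd1 and Tm4sf1 (0.90 to 0.92), Thbd like Fyn, Rangap1 and Ippk (0.84 to 0.87) and Tfpi like Sfxn3, Creb3l2 and Lrrc8c (0.80 to 0.82).

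The authors also deposited tables of genes past their own thresholds. No gene in them had an absolute log2 fold change under 1.00 or a q-value above 0.05. The limma calls have no such limit of size, so a called gene with a smaller change can be absent from them. The authors' deposited table for GFP-AL against GFP-Veh lists 4 of the 9 genes, all higher, with log2 fold changes of 1.78 for Procr, 2.06 for Plaur, 1.51 for F13a1 and 1.78 for Vwf. The authors' deposited table named for LH3-AL against GFP-Veh lists Procr (-1.63), Plat (-1.28) and Plaur (-3.76). Across its 1746 genes found in the FPKM table, its fold changes had a Pearson r of 0.99 with LH3-AL minus GFP-AL and of 0.23 with LH3-AL minus GFP-Veh, so it is read here as a table of LH3-AL against GFP-AL.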

How the data were processed

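Per the labels' protocols, vessels came from perfused brains freed of pia mater and choroid plexus, which were homogenised and spun repeatedly at low speed. STAR 2.5.1b and the build mm8 appear in the submitters' processing notes. The counting step, strand and the authors' own test were not given in the sources used here. FPKM values of 22557 genes in 15 libraries were deposited by the authors; 5.99% of them lie below 0 (lowest -0.465), which FPKM cannot, so the unit was recorded as other, the test meant for FPKM was kept and such values were set to 0. The authors' deposited differential tables hold log2 fold changes, p-values and q-values of 2 contrasts, with no sample values.

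Shared symbols (31) were summed, which left 22526. Positions are those of GENCODE M21 (GRCm38), matched by gene identifier for 22400 genes, and no coordinates were converted. Depth was estimated from the steps between low FPKM values and exon lengths; 43.9% to 66.0% of low values came out whole within 0.1 fragment, too few for a count test. Group means of log2(FPKM + 1) over all 15 libraries were compared with limma 3.58.1 (R 4.3.3, intensity trend) for the 13082 genes averaging at least 1 FPKM, with Benjamini-Hochberg adjustment over all of them and calls below 0.05. Exact permutation tests were two-sided. The script was tested on simulated data. Members and gene lists were chosen with earlier results of these data known. The text names all 9 members, the main genes of the pathway, up to 4 called genes of any other list per comparison (smallest p first) and the 3 genes most like each member, leaving out predicted genes; some genes that this rule selects are not reported. Replicate numbers come from the titles. Same-numbered libraries of 2 groups correlated, as deviations from group means, between -0.26 and 0.29, so the numbers were not taken to pair libraries. Settings tried besides these were a pseudocount of 0.1, every gene kept, a floor of 5 FPKM, 2 other scalings, fits of 2 groups, a replicate block, depth as a covariate, and leaving out libraries.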

Additional observations from a re-analysis of the deposited data

Results flagged for a closer look

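Among 54 sets of 5 libraries (a gene in a group), 3 had a library far from the other 4, where the gap to the nearest library was more than 0.71 of the range; chance gives about 1 in 20 such sets. Thbd in GFP-AL replicate 2 was 156 FPKM, with the nearest library at 92.8 FPKM. Vwf in LH3-AL replicate 5 was 99.2 FPKM, with the nearest library at 51.5 FPKM. Serpine2 in LH3-AL replicate 2 was 20.96 FPKM, with the nearest library at 18.6 FPKM.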

How the results depend on the processing

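When any 1 library was left out, the number of called members lay between 4 and 5 in GFP-AL against GFP-Veh, between 3 and 5 in LH3-AL against GFP-AL and between 0 and 1 in LH3-AL against GFP-Veh. The 3 calls came without LH3-AL replicate 1 or 2. With the replicate block 5, 5 and 0 members were called in the 3 comparisons, and with depth as a covariate 0 in the last. Calls of single members that were lost are given beside them; no other member call was lost in any setting. Signs turned for differences with no call. In GFP-AL minus GFP-Veh, Thbd was 0.056 with median-of-ratios scaling, 0.10 with depth as a covariate and -0.22 to 0.047 with 1 library left out; Plau was 0.013 with depth and -0.43 to 0.026 with 1 left out, and Tfpi -0.037 to 0.45. In LH3-AL minus GFP-AL, F3 was -0.054 without the 3 libraries that stand apart and -0.038 to 0.21 with 1 left out, and Thbd 0.0103 with quantile normalization. In LH3-AL minus GFP-Veh, Serpind1 was 0.0014 without those 3 and -0.21 to 0.0096 with 1 left out, and Tfpi2 -0.091 with depth. The causes were not tested. Over all genes, 3737 calls in GFP-AL against GFP-Veh became 2369 with depth as a covariate. The 68 in LH3-AL against GFP-Veh became 4 with depth, 31 with the replicate block, 176 in a fit of the 2 groups and 158 without the 3 libraries, and 27 to 57 with 1 library left out. Depth and group cannot be told apart for the 4 shallow GFP-Veh libraries. Of the libraries of the first group, 2, 1 and 1 of 5 correlated best with their own replicate number.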

Other observations

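The remaining marker lists, given as genes called higher and lower of those tested in GFP-AL against GFP-Veh and then in LH3-AL against GFP-AL, were as follows. Microglial markers gave 2 and 0 of 8, then 0 and 3. Endothelial markers gave 5 and 3 of 12, then 1 and 4; venous ones gave 3 and 1 of 8, then 1 and 2, and arterial ones 6 and 3 of 10, then 1 and 4. Smooth muscle markers gave 0 and 2 of 8, then 1 and 0, pericyte markers 0 and 2 of 8, then 3 and 0, and fibroblast markers 1 and 0 of 8, then 1 and 1. Astrocyte markers, of a cell type known to make tissue factor, gave 1 and 2 of 10, then 1 and 1. Oligodendrocyte markers gave 0 and 6 of 9, then 4 and 0, and neuron markers 0 and 0 of 9, then 1 and 0. Choroid plexus markers, of a tissue that the protocol clears, gave 0 and 7 of 8, then 6 and 0, with sums of 3147 to 5241 FPKM in LH3-AL, 1964 to 3085 FPKM in GFP-AL and 3658 to 9178 FPKM in GFP-Veh. Of 8 hepatocyte markers 2 were tested. Hp, also known from neutrophils, rose in GFP-AL against GFP-Veh (2.12) and fell in LH3-AL against GFP-AL (-2.73). Ttr, also known from choroid plexus, averaged 4137 FPKM in LH3-AL, 2648 FPKM in GFP-AL and 5122 FPKM in GFP-Veh, and fell in GFP-AL against GFP-Veh (-0.88). Alb, the defining marker, was under 0.1 FPKM in every library. None of these lists had a call in LH3-AL against GFP-Veh.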
